A study of Mus musculus with 3 samples.

Results

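The axoneme of a motile cilium was followed through the 70 genes of the mouse table whose symbols mark its dynein heavy chains (Dnah), dynein intermediate chains (Dnai), radial spoke heads and stalks (Rsph), nexin-dynein regulatory complex (Drc), tektins (Tekt), sperm-associated antigens (Spag) and cilia- and flagella-associated proteins (Cfap). They were taken by symbol alone from the 28676 genes measured, and pseudogenes were left out. All 70 had at least 1 unique molecular identifier (UMI, a count of 1 captured transcript) in the cells kept, and 64 had at least 1 in ependymal cells. Cfap73, Dnah8, Dnah17, Rsph6a, Dnah2os and Spag17os had none there.

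A motile cilium beats because rows of outer and inner dynein arms slide the doublet microtubules of its axoneme against each other. The radial spokes and the central pair signal to the arms, the nexin-dynein regulatory complex links neighbouring doublets, and tektins stiffen the doublet wall from inside. In the brain, ependymal cells line the ventricles and carry tufts of such cilia, which move cerebrospinal fluid, and epithelial cells of the choroid plexus carry shorter tufts. Astrocytes bear at most a primary cilium, which lacks the beating machinery.

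The medial vestibular nuclei (MVN) of C57BL/6 mice were dissociated to single cells 1 day after surgery on the right ear at postnatal day 20, in 3 libraries with 1 per condition. Control (label VN) pooled 10 mice whose bulla was opened only, while ULI and ULC were the ipsilateral and contralateral nuclei of the same 11 mice after unilateral labyrinthectomy, the removal of the inner ear organ. Since labyrinthectomy stands in the treatment field of every record, control included, control rests on its source name and the study's methods. The libraries held 4816, 5062 and 4998 barcodes and 27019650, 17428194 and 12768983 UMIs for control, ULI and ULC, with a median of 3177, 2100 and 931 UMIs in the cells kept.

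Ependymal cells were the 246 cells with at least 1 UMI of Ccdc153 or Tmem212: 153 in control, 58 in ULI and 35 in ULC. Both genes are ependymal markers. They are not among the 70 genes, but choosing cells by them favours ciliated cells. Choroid plexus cells had 5% or more of their UMIs on Ttr, the transthyretin gene, and numbered 43, 244 and 1047. Other classes were clusters named from marker genes, and the clustering left out the 70 genes and other genes of the axoneme. Barcodes are running numbers in each library, so barcodes shared between libraries could not be counted. Since each condition is 1 library, no test over replicates could be made. Levels are given as CPM, the UMIs of a gene in 1000000 UMIs of the same cells, with exact 95% Poisson intervals, and ratios with exact 95% binomial intervals, all of which cover counting error only and not the spread between mice or preparations. A UMI counts a molecule and is not scaled to transcript length, so levels of different genes compare captured molecules. Where 3 values follow each other, they belong to control, ULI and ULC in this order.

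Of the ependymal cells, 115 of 153, 48 of 58 and 31 of 35 lay in 1 ependymal-like cluster, led by genes such as Tmem212, Ccdc153, Enkur, Cd24a, Ak7 and Rsph4a. All 11 ependymal markers searched had UMIs in every library's ependymal cells, and their summed level was 7519, 7320 and 7350 CPM. These 11 include Ccdc153 and Tmem212, by which the cells were chosen, so part of the sum follows from the rule. The other 38, 10 and 4 cells lay elsewhere, in control mostly among mature oligodendrocyte-like cells (16) and microglia-like cells (13). Those cells held 761, 1484 and 1266 CPM of the 70 genes, against 13385, 11457 and 13948 CPM in the cells inside the cluster. Markers of mature oligodendrocytes moved with the libraries in the whole ependymal set, at 43416, 19788 and 6167 CPM, and microglial markers stood at 1642, 450 and 283 CPM. Values inside the cluster are therefore given beside the summed level of the 70 genes and beside several genes that differed most between libraries. Sums of structural groups are over all ependymal cells, those outside the cluster included. The share of ependymal cells inside it was lowest in control, at 75.2% against 82.8% in ULI and 88.6% in ULC.

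**Figure D1:**
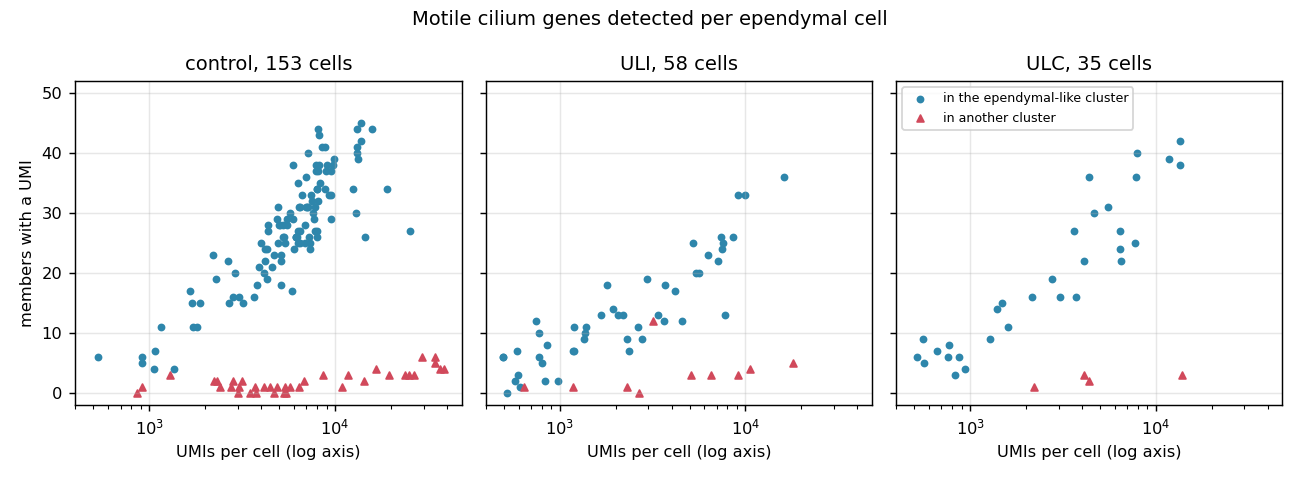
Number of the 70 motile cilium genes with a UMI (y axis) against the UMIs of the cell (x axis, log), 1 point per ependymal cell, in control, ULI and ULC. Cells of the ependymal-like cluster (circles) gained members with depth, up to 45, 36 and 42. Most cells with Ccdc153 or Tmem212 in another cluster (triangles) stayed near the bottom at every depth. An exception in ULI had 12 members at 3164 UMIs.

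Promoters of the genes are shown here because these genes were found together in the same cells. Regulatory factors of the RFX family, which act in ciliated cells, bind the X-box. Only its half-site GTTGCC was searched for, not a whole X-box, and this half-site is called the core below. In RefSeq promoters of GRCm38.p6, 57 of the 70 genes had an entry, and 16 of these (28.1%) held GTTGCC on either strand in the 250 bases before the start, against 2833 of 27025 promoters of all genes (10.5%). The forkhead core TGTTTAC, searched for on both strands in the same way, stood in 4 of 57 (7.02%) against 3.09% of all promoters. A match to these letters is a description and not a bound site. The 100-base stretches below belong to the 5 genes with the core and the most ependymal UMIs among the 57 with an entry. Cfap54, Rsph4a and Rsph1, the members with the most ependymal UMIs, had no entry and were not searched. Each is written on the strand of its gene with the core, or its reverse complement GGCAAC, in capitals.
Spag6: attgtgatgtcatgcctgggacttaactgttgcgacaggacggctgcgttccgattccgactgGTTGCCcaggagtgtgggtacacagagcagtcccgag
Cfap44: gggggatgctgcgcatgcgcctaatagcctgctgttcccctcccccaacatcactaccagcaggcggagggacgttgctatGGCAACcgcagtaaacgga
Spag16: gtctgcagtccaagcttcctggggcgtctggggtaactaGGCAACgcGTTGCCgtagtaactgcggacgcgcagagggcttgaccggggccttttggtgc
Cfap46: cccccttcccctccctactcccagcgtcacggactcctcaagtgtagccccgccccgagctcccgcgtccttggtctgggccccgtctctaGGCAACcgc
Cfap20: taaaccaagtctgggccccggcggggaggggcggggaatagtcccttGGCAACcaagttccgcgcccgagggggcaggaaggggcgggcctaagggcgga
The stretches lie at chr2:18698922-18699021 (+ strand) for Spag6, chr16:44394699-44394798 (+ strand) for Cfap44, chr1:69826820-69826919 (+ strand) for Spag16, chr7:139683816-139683915 (- strand) for Cfap46, chr8:95434911-95435010 (- strand) for Cfap20. Between the core nearest the gene and the start lay 31, 13, 97, 3 and 88 bases in the same order. Spag16, a protein of the central pair, carried the core in both orientations, 2 bases apart. The core was also found before Tekt1, Dnaic2, Dnah10, Cfap161 and Cfap58, among others, and not in the windows of Dnah5 or Dnah12.

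Ependymal cells held the members at a far higher level than their number would give. They made up 1.76% of cells and 2.75% of UMIs but 22.2% of the UMIs of the 70 genes (14331 of 64500). The summed level was 8917 CPM (95% interval 8748 to 9089), 8796 (8410 to 9195) and 11907 (11365 to 12468). In astrocyte-like cells it was 941, 1088 and 1110 CPM, so ependymal cells stood 9.47-fold (8.80 to 10.2), 8.08-fold (7.41 to 8.83) and 10.7-fold (9.56 to 12.1) higher. Of the genes with at least 20 UMIs over the 2 classes, 51 of 57 in control, 30 of 35 in ULI and 33 of 36 in ULC were at least 4-fold higher in ependymal cells, whereas 17.1%, 12.3% and 16.3% of all genes were. Their median log2 ratio was 4.56, 5.40 and 4.48, against 0.45, 0.38 and 0.51 over all genes. Since the cells were chosen by markers of ciliated ependymal cells, part of this enrichment follows from the rule. Cells of the ependymal-like cluster without a UMI of Ccdc153 or Tmem212 held 6324, 3770 and 2280 CPM of the 70 genes.

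Most of the members' UMIs in glial classes came from 5 broadly found members: Spag9, a scaffold of stress kinases also called JIP4, Spag7, Cfap36, Cfap20 and Cfap97. They gave 11.2%, 16.8% and 9.39% of the members' UMIs in ependymal cells of control, ULI and ULC, but 71.7%, 77.3% and 66.4% in astrocyte-like cells and 87.3%, 90.7% and 90.2% in oligodendrocyte precursor-like cells. In mature oligodendrocyte-like cells they gave 93.8%, 90.3% and 80.6%. In choroid plexus cells their share was smaller, 24.3%, 41.5% and 37.4%. Without these 5, which were set apart after their values were seen, the other 65 genes summed to 7918, 7320 and 10789 CPM in ependymal cells and 266, 247 and 373 in astrocyte-like cells. Precursor-like cells held 161, 136 and 106 CPM of the 65, and microglia-like cells 100, 51.6 and 183. The value of microglia-like cells in ULC rests on 7 UMIs, with an interval from 73.5 to 377.

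**Figure D2:**
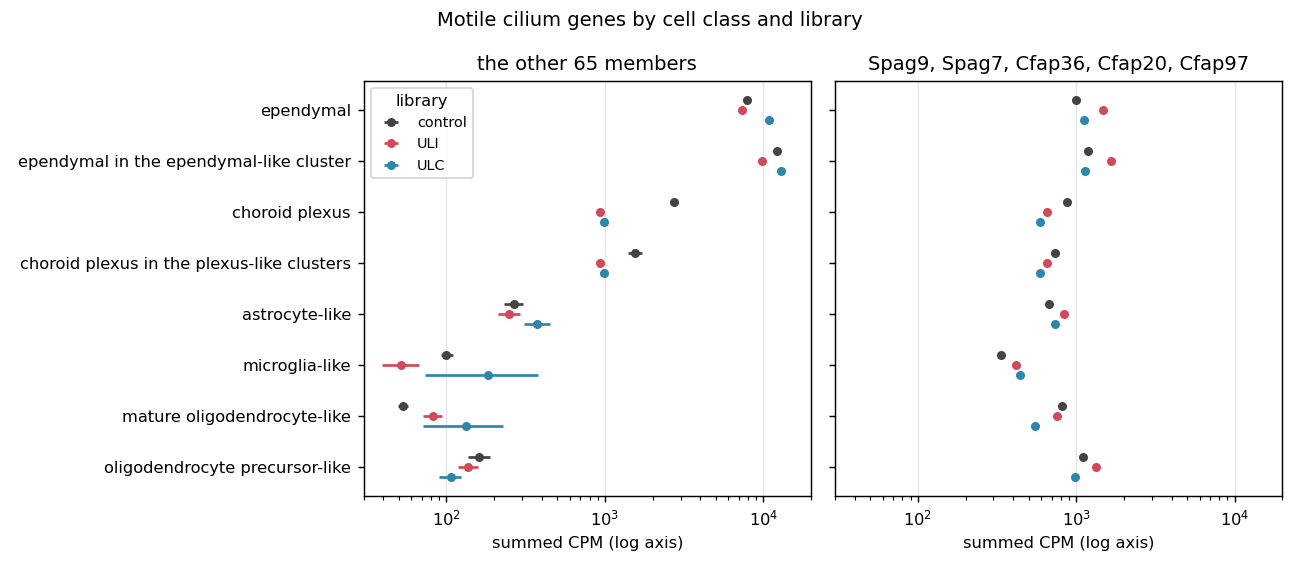
Summed CPM (x axis, log) of 65 motile cilium genes (left, bars are 95% Poisson intervals) and of Spag9, Spag7, Cfap36, Cfap20 and Cfap97 (right) in 8 sets of cells (rows), by library (colours). On the left the ependymal sets lie at or above 7320 CPM and the plexus sets between 925 and 2718, while the other classes lie at or below 373. On the right all sets lie between 335 and 1645 CPM.

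The outer dynein arms, which provide most of the beat's power, were represented by Dnah5 and Dnah9. Dnah5 stood at 311, 328 and 256 CPM in ependymal cells, and its intervals overlapped in all 3 libraries. Dnah9 stood at 174, 216 and 112 CPM. Dnah11 was lower, at 35.4, 22.5 and 26.3 CPM. Dnah17, best known from sperm, had 0 UMIs in ependymal cells, as did Dnah8. Against astrocyte-like cells, Dnah5 was 6.95 higher in control (5.09 to 10, from 2 UMIs in astrocyte-like cells) and 4.33 in ULC (2.86 to 6.28) on the log2 scale. In ULI, where astrocyte-like cells had none, it was at least 6.13 higher with those cells set to 3 UMIs.

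Inner arm heavy chains, which shape the bend, were led by Dnah12 (192, 216 and 296 CPM in control, ULI and ULC) and Dnah6 (146, 171 and 197 CPM). Dnah1 followed at 73.4, 67.5 and 125 CPM. Dnah2, a chain of the 2-headed inner arm, was at 61.6, 27.0 and 131 CPM, and its partner Dnah10 was at 36.3, 13.5 and 78.9 CPM. Both were thus lowest in ULI and highest in ULC, with intervals that overlapped between ULI and control. Inner arm heavy chains together summed to 655, 630 and 1052 CPM over all ependymal cells, inside the cluster or not. Dnah7a, Dnah7b and Dnah7c are near-identical copies on chromosome 1, with Dnah7b and Dnah7c side by side, whose reads the counting may have split, and their sum was 82.7, 103 and 151 CPM.

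The intermediate chains Dnaic1 and Dnaic2 anchor the outer arm's heavy chains. Dnaic1 was found at 120, 67.5 and 158 CPM, and Dnaic2 at 93.7, 58.5 and 335 CPM in control, ULI and ULC. Dnaic2 in ULC lay above the intervals of the other libraries and came from 45.7% of the cells. Inside the cluster its log2 ratio of ULC to control was 1.54 (1.03 to 2.04). Dnaic1 was also found in astrocyte-like cells, at 21.4, 40.6 and 25.5 CPM. Its 3′ end overlaps Enho on the opposite strand, and whether the counting used strand is not given in the sources used here, so the 2 genes cannot be told apart there.

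A pair of the 8 radial spoke genes was among the highest of all members. Rsph4a, a spoke head protein, was at 582, 418 and 421 CPM. Rsph1, of the same head, was at 526, 450 and 657 CPM. These 2 were found in 69.3% and 65.4% of control ependymal cells. Rsph10b reached 156, 90.0 and 250 CPM. Rsph9, the third head protein, was far lower at 31.2, 49.5 and 52.6 CPM. The stalk genes Rsph3a and Rsph3b are near-identical copies, and their sum was 59.1 (46.1 to 74.6), 139 (94.8 to 198) and 145 (90.6 to 219) CPM. Control was thus below both other libraries. Rsph3b alone was at 29.5, 90.0 and 32.9 CPM, a log2 ratio of 1.61 (0.74 to 2.44) for ULI to control. Rsph3a was at 29.5, 49.5 and 112 CPM. Inside the cluster, Rsph3b was also at least 2-fold higher in ULI than in control, and Rsph3a in ULC than in control.

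In the nexin-dynein regulatory complex, Drc3 was at 371, 535 and 447 CPM, Drc7 at 118, 81.0 and 224, and Drc1 at 98.7, 103 and 118. Over all ependymal cells, inside the cluster or not, the complex summed to 587, 720 and 789 CPM. In astrocyte-like cells it summed to 1.26, 4.69 and 0 CPM. It was therefore almost without background there. Among the central pair genes, Spag6 was at 250, 333 and 394 CPM, Spag16 at 193, 234 and 283, and Spag17 at 187, 229 and 289. All 3 had the same order of libraries, and in each gene the interval of ULI overlapped those of the other 2. Inside the cluster all 3 intervals overlapped in each gene. Spag8, an axonemal Spag gene not counted here as a central pair gene, ran the other way, at 139, 139 and 78.9 CPM. Its log2 ratio of ULC to control was -0.82 (-1.80 to 0.02). Inside the cluster it was at least 2-fold lower in ULC than in control.

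Cfap genes gave the largest part of the signal in all ependymal cells, inside the cluster or not, with 4242, 3973 and 5227 CPM over 26 genes. Cfap54, of the central apparatus, was highest in control, with 582, 472 and 546 CPM. Cfap126, also called Flattop, was at 479, 436 and 789 CPM, and was thus highest in ULC. Inside the cluster it was at 741, 565 and 940 CPM, where the intervals of control and ULC overlapped. Cfap36 was at 407, 634 and 454 CPM, highest in ULI. Cfap206, a protein of the spoke base, reached 246, 292 and 329 CPM, and Cfap44 and Cfap43, which tether the 2-headed inner arm, reached 244, 292 and 302 CPM and 225, 351 and 309 CPM. Cfap52, a protein inside the doublet wall, was at 226, 117 and 243 CPM and so lowest in ULI. Cfap46, of the central apparatus, was level at 187, 198 and 197 CPM.

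**Figure D3:**
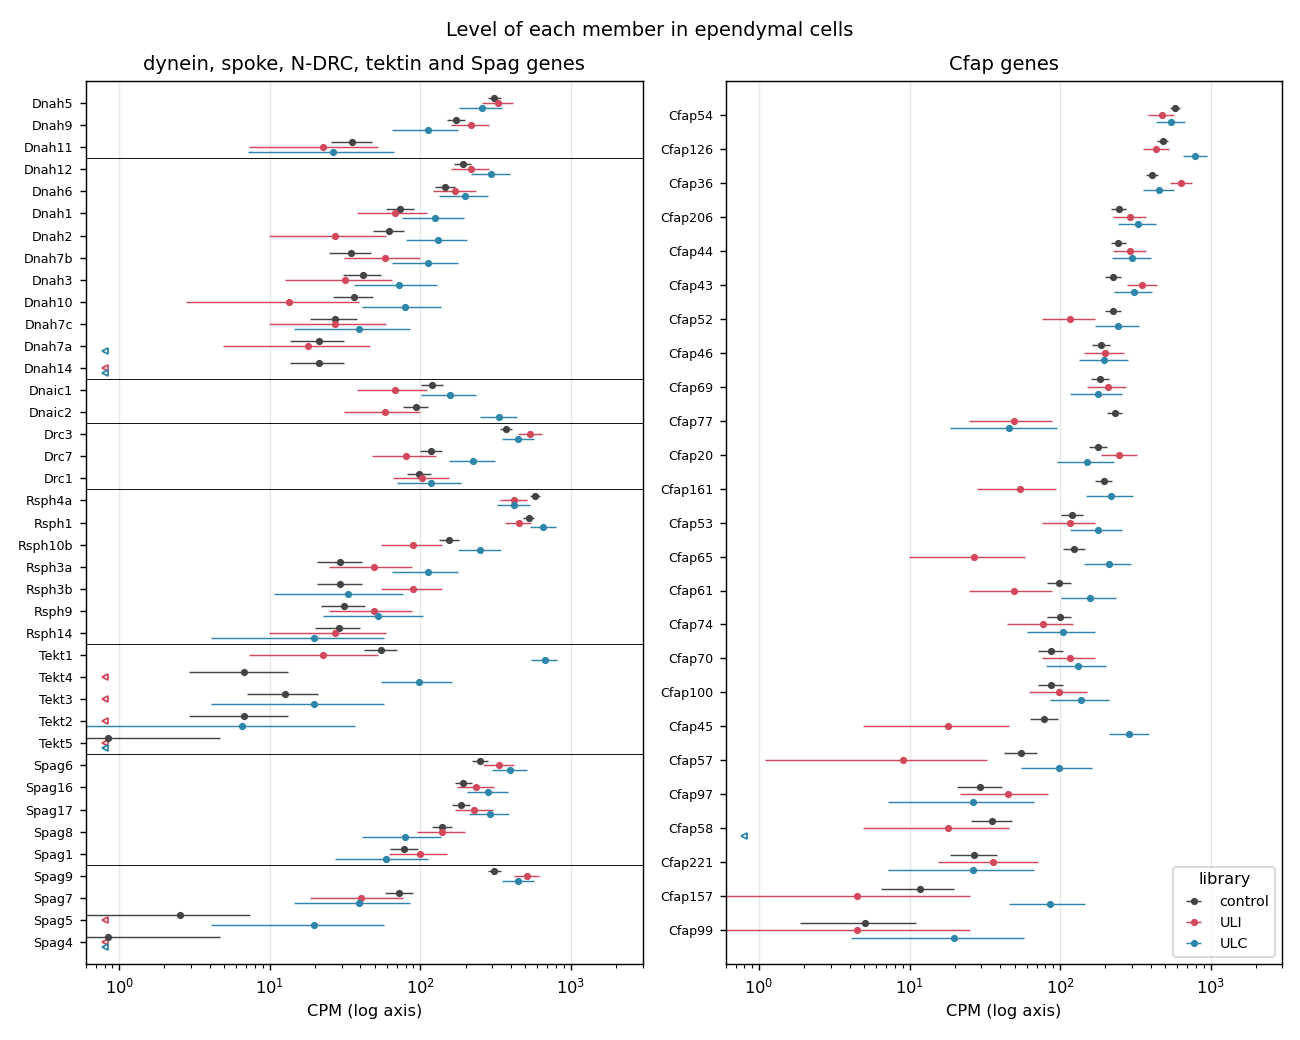
CPM (x axis, log) of each motile cilium gene with a UMI in ependymal cells (rows), by library (colours), with 95% Poisson intervals as bars, and open triangles at the left edge for a library with 0 UMIs. Left, dynein chains, nexin-dynein regulatory complex, spokes, tektins and Spag genes, set off by lines. Right, Cfap genes. Libraries lie close together for most genes of high level, with Tekt1 and Cfap77 as wide exceptions.

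The differences of the summed level from control depended on which cells were counted. The log2 ratio of sums was -0.02 (-0.09 to 0.05) for ULI to control, 0.42 (0.34 to 0.49) for ULC to control and -0.44 (-0.53 to -0.34) for ULI to ULC. Inside the ependymal-like cluster, the same ratios were -0.22 (-0.30 to -0.15), 0.06 (-0.01 to 0.13) and -0.28 (-0.38 to -0.19). With every cell of that cluster counted, with or without the 2 defining genes, ULC to control turned to -0.18 (-0.25 to -0.11). These 3 comparisons share libraries, and ULI and ULC come from the same mice.

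Single genes moved more than the sum. In ULI, 1 of 56 genes with at least 20 UMIs was at least 2-fold higher than in control and 8 were at least 2-fold lower, against 9.84% and 16.5% of all genes. In ULC, 9 of 58 were higher and 1 was lower, against 16.1% and 15.3% of all genes. Between ULI and ULC, 1 of 42 was higher in ULI and 12 were lower, against 12% and 13.5%. The shares of members that were lower in ULI (14.3%) and higher in ULC (15.5%) were thus near those of all genes, and the shares in the other direction, 1.79% and 1.72%, were smaller. Inside the cluster, 1 of 56 was higher and 13 were lower in ULI (all genes 8.82% and 17.3%), and 7 of 58 were higher and 4 lower in ULC (all genes 12.2% and 16.3%).

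The highest ratios of ULC to control were those of 2 tektins. Tekt1 stood at 54.9 CPM (42.3 to 69.9), 22.5 (7.30 to 52.5) and 671 (547 to 814), from 65, 5 and 102 UMIs. It was found in 21.6%, 5.17% and 60.0% of ependymal cells, and 1 ULC cell held 33.3% of that library's Tekt1 UMIs. The log2 ratio was 3.61 (3.15 to 4.08) for ULC to control and -1.29 (-2.96 to 0.01) for ULI to control, and inside the cluster 3.26 and -1.45. Tekt4, another filament protein of the doublet, had 8, 0 and 15 UMIs, or 6.75, 0 and 98.6 CPM, a log2 ratio of 3.87 (2.54 to 5.31) for ULC to control, and 3.49 inside the cluster. Tekt3 (15, 0 and 3 UMIs, or 12.7, 0 and 19.7 CPM) and Tekt2 (8, 0 and 1 UMIs, or 6.75, 0 and 6.57 CPM) were too low to tell. Their log2 ratios of ULC to control were 0.64 (-1.79 to 2.46) and -0.04 (-5.51 to 2.86), under the floor of 20 UMIs. Cfap157 followed the 2 tektins, at 2.85 (1.65 to 4.05) for ULC to control. It had 14, 1 and 13 UMIs, or 11.8, 4.50 and 85.5 CPM. Inside the cluster it was also at least 2-fold higher in ULC than in control.

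Tekt1 was also high in the ULC library outside ependymal cells. In choroid plexus cells it was at 12.7, 5.39 and 41.3 CPM in control, ULI and ULC. In astrocyte-like cells it had no UMI in control or ULI and 10 UMIs in ULC (31.9 CPM), where 2.87% of cells had a UMI. The gene thus lay above the other libraries in 3 classes of ULC, and the part of free RNA in this was not tested. Tekt4 had 0, 2 and 7 UMIs in astrocyte-like cells (0, 3.13 and 22.3 CPM). In choroid plexus cells Tekt4 had 0, 0 and 2 UMIs. Tekt1 lies at chr11:72344722-72362442 on the minus strand of mm10, with 8 exons in its longest transcript.

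The 5 lowest ratios of ULI to control were those of Cfap genes. Cfap57, which helps to dock inner arms, had 54.9, 9 and 98.6 CPM, a log2 ratio of -2.61 (-5.68 to -0.70) for ULI to control. Cfap65, of the central apparatus, had 124, 27.0 and 210 CPM (-2.20). Cfap45, inside the doublet wall, had 78.5, 18 and 289 CPM (-2.12, -4.03 to -0.72), and in ULC it was 1.88 (1.33 to 2.41) above control. Cfap161 had 195, 54.0 and 217 CPM (-1.85). For these 4 genes control and ULC were the higher libraries. Inside the cluster the ratios of ULI to control were -2.79, -2.38, -2.31 and -2.03 in the same order.

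Cfap77 was low in both ULI and ULC. It had 230 CPM (204 to 259), 49.5 (24.7 to 88.6) and 46.0 (18.5 to 94.8). The log2 ratios were -2.22 (-3.24 to -1.36) and -2.32 (-3.65 to -1.26), and inside the cluster -2.40 and -2.70. It was found in 52.9% of control ependymal cells against 13.8% and 11.4%. In the plexus-like clusters it was near 0 in all libraries, at 7.77, 4.63 and 3.96 CPM. Control cells were also deeper, with a median of 6190 UMIs against 2338 and 3603, and depth does not enter a CPM but does enter the share of cells.

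**Figure D4:**
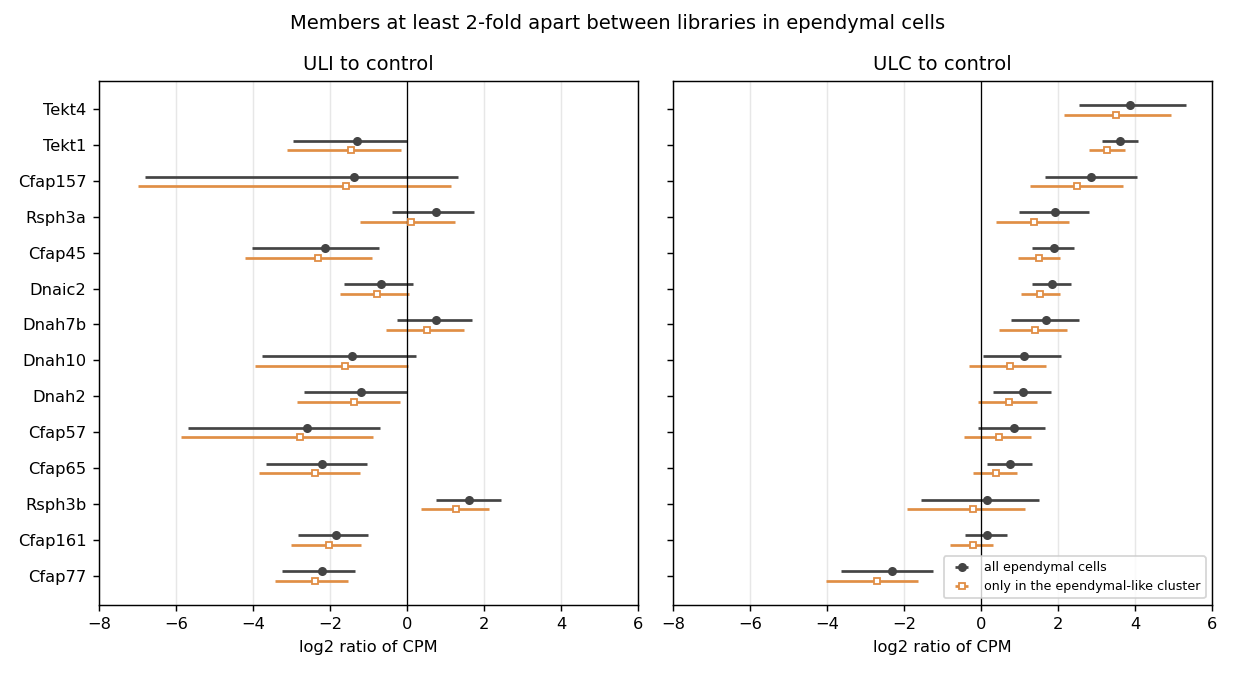
Log2 ratio of CPM to control (x axes) in ULI (left) and ULC (right) for the genes that were at least 2-fold apart in either comparison with UMIs in both libraries (rows), in all ependymal cells (filled) and only those inside the ependymal-like cluster (open), with 95% binomial intervals as bars. Cfap77 lies left of 0 in both panels, while Tekt1 and Cfap45 lie left in ULI and right in ULC. Cfap157 in ULI rests on 1 UMI.

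Choroid plexus cells held the same genes at a lower level and in other proportions. In the plexus-like clusters the 70 genes summed to 2281, 1579 and 1576 CPM in control, ULI and ULC, from 23, 242 and 1040 cells. Another 20 of the 43 control cells chosen by Ttr lay in the ependymal-like cluster at 5141 CPM, so the control plexus set as a whole, 3589 CPM, mixes both. In ULI and ULC, 28 of 37 and 40 of 48 genes were at least 4-fold higher in ependymal cells than in choroid plexus, against 15.5% and 14.4% of all genes.

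The members did not scale down evenly in the plexus. Dnah5 had 1 UMI in the 244 plexus cells of ULI, and was 8.74 (6.21 to 14.06) higher in ependymal cells on the log2 scale. In ULC it had 0 UMIs in 1047 plexus cells and was at least 8.14 higher. Dnah12 was 7.34 (6.11 to 8.86) higher in ULC ependymal cells, Cfap46 6.76 (5.47 to 8.31) and Dnah1 6.10 (4.72 to 7.71), each from 6 UMIs in plexus. Cfap36 was 0.99 and 0.61 higher in ependymal cells of ULI and ULC, Cfap69 0.78 and 0.82, and Cfap97 0.55 and 0.51. In the plexus-like clusters Cfap36 stood at 396, 317 and 297 CPM, Cfap126 at 159, 107 and 139, Cfap69, of the central apparatus, at 109, 121 and 101, and Rsph1 at 124, 62.6 and 61.3. The outer arm heavy chains together reached 16.9 and 14.9 CPM in ULI and ULC choroid plexus cells, and 567 and 394 CPM in ependymal cells.

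A few members were higher in another class than in ependymal cells. Spag5, the spindle protein astrin, had 131, 102 and 105 CPM in astrocyte-like cells and 2.53, 0 and 19.7 in ependymal cells. It lies at chr11:78301529-78322457, and ends 510 bases before Aldoc, which lies on the same strand at chr11:78322968-78327781 and reached 4035, 3835 and 3364 CPM in the same astrocyte-like cells. Whether reads of Aldoc entered the Spag5 count was not tested. Dnah8 had 139, 2 and 0 UMIs in mature oligodendrocyte-like cells, or 9.83, 0.717 and 0 CPM, and overlaps Glo1 on the opposite strand. Spag9 reached 739 CPM in oligodendrocyte precursor-like cells over the 3 libraries against 353 in ependymal cells, and Spag7 102 CPM in neuron-like cells against 64.8. Dnah7c and Cfap97 stood at 37.0 and 45.1 CPM in endothelial-like cells over the 3 libraries, against 28.2 and 31.4 in ependymal cells, with intervals that overlapped. For Dnah7c the order turned in ULC, at 17.9 CPM in endothelial-like and 39.4 in ependymal cells. Cfap74, of the central apparatus, was at 99.6, 76.5 and 105 CPM in ependymal cells and was also found in microglia-like cells, at 50.4, 24.9 and 183 CPM. The last value rests on 7 UMIs (73.5 to 377), and its interval overlaps that of the ependymal cells.

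Other parts of the ciliary programme were read from lists of genes. Among 16 genes that assemble or dock dynein, 12 of the 12 with at least 20 UMIs in control, 8 of 8 in ULI and 7 of 7 in ULC were at least 4-fold higher in ependymal than astrocyte-like cells. Mns1 led them with 473, 513 and 618 CPM. Of 35 other axonemal genes, 33 of 35, 27 of 28 and 28 of 28 were, with Enkur at 849, 1080 and 980 CPM, Ak7 at 620, 639 and 651 and Dynlrb2 at 619, 450 and 421. Of the genes of the primary cilium and of intraflagellar transport, which most cells use, 14 of 38, 10 of 25 and 13 of 21 were. Ift74 was at 419, 427 and 368 CPM in ependymal cells and 69.1, 92.2 and 79.7 in astrocyte-like cells. Of the ependymal genes outside the axoneme, 9 of 17, 7 of 13 and 6 of 13 were at least 4-fold higher. Over all genes these shares were 17.1%, 12.3% and 16.3%. Of the transcription factors of multiciliated cells, 3 of 7, 3 of 6 and 3 of 4 were, namely Foxj1, Rfx2 and Myb. Rfx4 and E2f5 were not, with log2 ratios of -1.14 and -0.47 in control. Foxj1, the main switch for motile cilia, was at 528 CPM (488 to 571), 202 (148 to 271) and 1216 (1047 to 1405), so the 3 intervals did not overlap. Inside the cluster it was at 814, 258 and 1450 CPM. Foxj1 had the same order of libraries in the plexus-like clusters, at 81.6, 22.4 and 131 CPM, from 21, 29 and 428 UMIs. There the intervals of control and ULC overlapped, and ULI lay below both. The order was thus not limited to ependymal cells, and its cause was not tested. Myb was level at 160, 193 and 191 CPM.

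Cells varied widely around these levels. An ependymal cell held a median of 69.0 UMIs of the 70 genes in control, from 0 to 286, of 20 in ULI (0 to 183) and of 35 in ULC (2 to 218). It had UMIs of a median of 25, 10.5 and 16 members. After each cell of 1000 UMIs or more was thinned to 1000 UMIs, the median of its UMIs on the members was 12, 9 and 13, in 148, 43 and 26 cells. The libraries thus lay closer together at equal depth. Inside the cluster, the share of a cell's UMIs on the members was 1.37%, 1.12% and 1.28% in the median.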

How the data were processed

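The deposited counts are whole-number UMI counts per gene and barcode in 1 table, which the authors made from their reads. Their processing notes name mm10, CASAVA 1.8, UMI-tools and Seurat. Not given in the sources used here are the aligner, the annotation and how barcodes were called cells. The platform is named differently in the methods (10X), the series (Drop-seq) and the records (BD Rhapsody).

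Cells with at least 200 genes were kept. They were scaled to 10000 per cell and clustered (scanpy 1.11.5, leidenalg 0.10.2) with 2000 variable genes, 30 components, 20 neighbours and resolution 1.0, without the members, other axonemal genes, Ccdc153 and Tmem212. A cluster was named where at least 3 markers of a class stood among its top 100 genes. A cell that met both rules counted as choroid plexus. Doublets were kept, and Scrublet was run as an alternative. UMIs were summed per class and library. A class at 0 was set to 3 counts for a bound, and genes needed 20 UMIs over the groups compared. With 1 library per condition no p-value was computed. The interval code was tested on simulated data. edgeR 4.0.16 and DESeq2 1.42.0 gave scaling factors only.

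Genes named are the 4 with the most ependymal UMIs of each structural group (8 for Cfap), the 5 highest and 5 lowest ratios of ULI and ULC to control, those higher in another class with at least 20 UMIs, and up to 4 of each further list. Other genes named beside them, such as Cfap69, Cfap74, Rsph9, Dnah7a and Dnah10, were chosen after their values were seen. The members and lists were chosen with earlier results of these data known. Positions are from GENCODE vM21 (mm10) and promoters from RefSeq.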

Additional observations from a re-analysis of the deposited data

Results flagged for a closer look

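In ependymal cells 4 motile cilium genes, Tekt1, Cfap45, Dnah2 and Dnah10, were at least 2-fold lower in ULI than in control and at least 2-fold higher in ULC than in control. The log2 ratio of ULI to ULC was -4.90 (-6.55 to -3.63) for Tekt1, -4.01 (-5.94 to -2.55) for Cfap45 and -2.28 (-3.89 to -0.92) for Dnah2. For Dnah10 it was -2.55 (-5.01 to -0.66), from 3 and 12 UMIs, which is under the floor of 20. The difference was not tested, since each side is 1 library, and both ratios share the control. Inside the ependymal-like cluster the ratios of ULI and ULC to control were -1.45 and 3.26 for Tekt1, -2.31 and 1.50 for Cfap45, -1.37 and 0.72 for Dnah2 and -1.61 and 0.74 for Dnah10.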

How the results depend on the processing

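No paired analysis was possible because each condition is 1 library and no replicate numbers exist. Intervals cover counting error only, and a class of few cells (35 in ULC) limits what can be seen. Of 17 planned settings and 2 added after seeing the data, the choice of ependymal cells moved the sums most. For control, ULI and ULC the summed CPM became 12652, 11042 and 14201 with 2 UMIs of the defining genes, 13385, 11457 and 13948 only inside the cluster, 11163, 10046 and 9836 with all its cells, 9726, 9562 and 12826 with totals without Ttr, mitochondrial, ribosomal protein and haemoglobin genes, and 11108, 9442 and 12615 after thinning. It became 10616 and 10195 (control, ULI) as a mean over cells, 9187 (control) without doublets, 11016 (ULC) with cells that meet both rules, 8530 and 8247 (control, ULI) without 4 Spag genes, and 7914, 7320 and 10769 without these and Cfap20, Cfap36 and Cfap97 (added).

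The log2 ratio of sums for ULI to control became -0.20 with 2 UMIs, -0.22 inside the cluster, -0.15 with all its cells, -0.23 after thinning and -0.11 without the 7 genes. For ULC to control it became 0.17 with 2 UMIs, 0.06 inside the cluster, -0.18 with all its cells (reversed), 0.33 with cells that meet both rules, 0.19 as a mean over cells, 0.18 after thinning, 0.31 by TMM and 0.33 by median-of-ratios. For ULI to ULC it became -0.28 inside the cluster, 0.03 with all its cells (reversed), -0.32 with cells that meet both rules, -0.25 as a mean over cells and -0.56 without the 7 genes. The count of genes at least 4-fold above astrocyte-like cells was 30, 6 and 3 after thinning, which leaves fewer UMIs, and 15 and 11 (ULI, ULC) with a floor of 50 UMIs, and was 46 in ULI with no floor.

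Among single genes, ULC to control turned to -0.05 for Rsph1 inside the cluster, and with all its cells to -0.05 for Spag6, -0.06 for Spag16, -0.15 for Spag17 and -0.30 for Rsph1. It turned to -0.60 for Dnah12 as a mean over cells, and after thinning to -0.12 for Spag17, -0.03 for Rsph10b and -0.88 for Cfap65. The cause was not tested. The other 1151 single-gene values kept their sign or had an interval that held 0, and 59 of them left the interval.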

Other observations

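Cells of the ependymal-like cluster without a UMI of Ccdc153 or Tmem212 numbered 20, 12 and 19 in control, ULI and ULC, with a median of 1862, 1984 and 745 UMIs. They held the 70 genes at 6324, 3770 and 2280 CPM, between the levels of ependymal cells inside the cluster and of choroid plexus. Dnah14, an inner arm chain, had 25 UMIs in control ependymal cells and 0 in ULI and ULC, but 82, 95 and 0 UMIs in mature oligodendrocyte-like cells (5.80, 34.1 and 0 CPM), and overlaps Lbr on the opposite strand. Rfx4, a factor of the RFX family, was at 72.6, 171 and 184 CPM in ependymal cells. In control it was higher in astrocyte-like cells (160 CPM) than in ependymal cells. The ependymal levels of ULI and ULC were near that value, but they come from other libraries.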
